A study of Mus musculus with 8 samples.

Results

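The genes described here encode the core machinery that removes introns from messenger RNA precursors and the 2 large protein families that steer it, measured in the whole retina of mice in which the splicing regulator Rbfox2 had been reduced. They are the genes of the deposited table whose symbols begin with Srsf, Hnrnp, Sf3a, Sf3b, Snrp, Snrnp, U2af or Prpf, with a number following where the family is numbered. That rule matched 75 gene names, of which 4 hnRNP genes set aside by it are not described, and left 71 of the 17500 genes in the table. The rule reads names alone and no measured value, but it was set with earlier results of these data known. All 71 passed the filter on low counts and were tested, among 16797 genes tested in all.

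RNA was sequenced from the retinas of 8 mice on the C57BL/6J background at 6 months of age, 4 labelled control and 4 labelled Rbfox2 KD. By the study's methods the Rbfox2 KD mice carried 2 loxP-flanked Rbfox2 alleles (Rbfox2 fl/fl) and a tamoxifen-inducible Cre recombinase. The promoter of this Cre is active throughout the body. The controls were age-matched Rbfox2 fl/+ animals. The labels give tamoxifen treatment for 4 months to every mouse. The paper instead describes a short course of tamoxifen in the floxed Cre mice, with retinas studied 4 months after it. It names corn oil as the vehicle but does not say whether the controls received the drug or carried Cre. Genotype therefore goes together with the group, as does Cre if the controls lacked it and tamoxifen if they had none. Their parts in any difference cannot be told apart. With such a promoter the deletion was not limited to 1 retinal cell type, and a whole retina is a mixture in which fewer cells of a type and less RNA per cell cannot be told apart.

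Rbfox2 itself had 144, 150, 157 and 148 CPM (counts scaled to library size) in the control mice M833, M894, M896 and M898, and 53.9, 58.9, 53.6 and 59.4 CPM in the Rbfox2 KD mice M893, M901, M902 and M909. The groups were far apart, with a log2 fold change of -1.41 (SE 0.046; adjusted p = 5.51e-07, edgeR quasi-likelihood test with Benjamini-Hochberg adjustment). Libraries held 160630226 to 211283591 counted fragments, and the lowest count of any of the 71 genes in any mouse was 446. All 12 retinal marker genes were present, summing to 50108 to 53237 CPM in control and 50648 to 55260 CPM in Rbfox2 KD retinas. The Rbfox2 KD libraries M901 and M902 stood apart from the other 6 on the first principal component, which held 40.5% of the variance, and M909 on the second, which held 19.2%. Xist, the RNA that coats the inactive X chromosome, was at 1440 and 1739 CPM in M901 and M902 and at 1.71 to 2.22 CPM in the other 6 mice. The labels give no sex. By this RNA M901 and M902 read as female and the other 6 mice, with all controls, as male. Sex read in this way was therefore not balanced between the groups. M901 and M902 also had the lowest summed level of 2 ciliary epithelium markers (1.63 and 1.49 CPM, against 15.5 to 37.9 CPM in control retinas). M909 had the highest of 4 surface epithelium markers (38.4 CPM, against 0.993 to 2.40 CPM in control retinas). Controls differed too, with 5 pigment epithelium markers summing to 141 CPM in M898 and 78.5 CPM in M894, against 17.2 to 46.2 CPM in Rbfox2 KD retinas. The counts, the median of each class and the genes with the lowest p are therefore given with and without M901 and M902, and the part of these differences in the results was not tested.

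Introns are removed by the spliceosome, which is put together anew on every intron from small nuclear ribonucleoproteins (snRNPs), each a short RNA bound by a ring of Sm proteins and by proteins of its own. U1 finds the start of the intron, U2 its branch point with help from the U2AF proteins at the end of the intron, and the U4/U6.U5 tri-snRNP then brings in the catalytic part, which Prp proteins remodel. SR proteins generally favour, and many hnRNP proteins oppose, the use of nearby exons, and Rbfox proteins act beside them by binding the RNA letters UGCAUG. Mutations in several tri-snRNP proteins cause retinitis pigmentosa, a degeneration of photoreceptors, although the proteins are made in every cell.

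Because Rbfox proteins also bind messenger RNAs at this motif outside introns, the 3′ untranslated region of 1 transcript per gene (GENCODE M21, build GRCm38) was searched on the sense strand for its DNA letters, TGCATG. At least 1 match was found in 16 of the 71 genes (22.5%), against 32.2% of 15262 tested genes with such a region, and the regions of the 71 genes were shorter (median 617 against 945 bases). Counted per length the matches were 0.284 per kb in the 71 genes and 0.360 per kb in all genes. The 4 sites below come from a pair of SR protein genes, an X-linked hnRNP gene and an Sm ring gene, and are shown as the motif (capitals) within 30 bases of the RNA strand, 5′ to 3′.
Srsf6 (chr2:162936511-162936540, + strand): tgactttctgacTGCATGcaactgctgggc
Srsf3 (chr17:29042567-29042596, + strand): aacttgaggtgtTGCATGggattccaaatt
Hnrnph2 (chrX:134606720-134606749, + strand): gaaaacttcagaTGCATGttgaaaaacatg
Snrpd3 (chr10:75536450-75536479, + strand): ctcgggtgcacaTGCATGgacttcctgagt
These letters are matches and not known binding sites. The median log2 fold change was 0.035 in the 16 genes with a match and 0.022 in the 55 without, and over all genes it was -0.0082 with and 0.0051 without.

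Promoters were compared in the same way over the RefSeq windows from 250 bases before to 50 bases after the transcription start (GRCm38.p6), which were held for 62 of the 71 genes and 12287 tested genes, with motifs searched on both strands. A gene counted if any of its windows held the letters, so genes with more windows had more chances to count. Genes were not matched in number of windows or in level, and differences between the shares were not tested. CCGGAAG, which ETS transcription factors are known to bind, was in 22 of the 62 (35.5%), against 16.7% of all genes. GCGCATGCG, the NRF1 motif, was in 4 (6.45%, against 3.51%), AAGATGGCG, the YY1 motif, in 2 (3.23%, against 2.90%), and TATAAA, the TATA box, in 7 (11.3%, against 9.44%). The 100 bases before the start of an SR protein gene, a tri-snRNP helicase gene and the gene of a spliceosomal ubiquitin ligase are shown with the ETS letters, on either strand, in capitals.
Srsf5 (chr12:80945399-80945498, + strand): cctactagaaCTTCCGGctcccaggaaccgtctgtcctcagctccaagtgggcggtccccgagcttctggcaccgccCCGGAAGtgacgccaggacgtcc
Snrnp200 (chr2:127208286-127208385, + strand): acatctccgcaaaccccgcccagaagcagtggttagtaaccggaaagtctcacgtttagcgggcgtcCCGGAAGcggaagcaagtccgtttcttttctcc
Prpf19 (chr19:10895131-10895230, + strand): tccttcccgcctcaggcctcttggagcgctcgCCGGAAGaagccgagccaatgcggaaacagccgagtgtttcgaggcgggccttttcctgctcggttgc
Genes with and without the ETS letters had median log2 fold changes of 0.029 and 0.025, and the difference was not tested.

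The level of each gene per length was taken from the length- and depth-scaled fragment values (FPKM) deposited by the authors, averaged over the 8 mice. Across the 71 genes it ran from 1.78 to 188 FPKM with a median of 31.0 FPKM, against a median of 6.84 FPKM over all genes tested. Hnrnpa2b1, an hnRNP that binds messenger RNAs in nucleus and cytoplasm, was the most abundant at 188 FPKM (164 to 204 over the 8 mice). Hnrnpl, which binds CA-rich RNA, followed at 173 FPKM (161 to 182), and Hnrnpu, a scaffold-attachment protein, at 170.3 FPKM (161 to 179.9). The ranges of these 3 neighbours overlapped, so their order is not fixed by these mice. The U1-specific protein gene Snrnp70 had 158 FPKM, the SR protein gene Srsf5 150.1 FPKM and the SF3b subunit gene Sf3b2 124 FPKM.

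At the other end stood Snrpn, a neuronal relative of the Sm ring protein gene Snrpb, at 1.78 FPKM (1.63 to 2.01 over the 8 mice). Its exons overlap those of Snurf on the same strand. Reads in the shared exons may not have been counted for Snrpn, so its low level is uncertain. Srsf12, an SR protein gene, had 4.16 FPKM (3.88 to 4.43), which does not overlap the range of Snrpn. The U4/U6 protein gene Prpf4 at 6.6 FPKM and the Sm ring gene Snrpg at 7.09 FPKM came next, and their ranges overlapped (6.16 to 6.98 and 6.51 to 7.8). The minor spliceosome removes a rare class of introns. Its 3 genes among those described here lay close together at 9.37 (Snrnp25), 8.72 (Snrnp35) and 8.43 FPKM (Snrnp48).

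Some low values bear a counting limit. Only uniquely mapped reads had been counted, and 19 of the 71 genes have at least 1 annotated pseudogene that matches them over 200 bases or more at 95% identity or higher. Hnrnpa3 has 23 such copies and Hnrnpa1 has 9, and their levels (17.6 and 12.3 FPKM) are uncertain for that reason. Exons of 3 genes overlap another gene on the same strand and those of 19 an antisense gene, such as Hnrnpu with Cox20, and whether counting used the strand is not given in the sources used here.

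**Figure D1:**
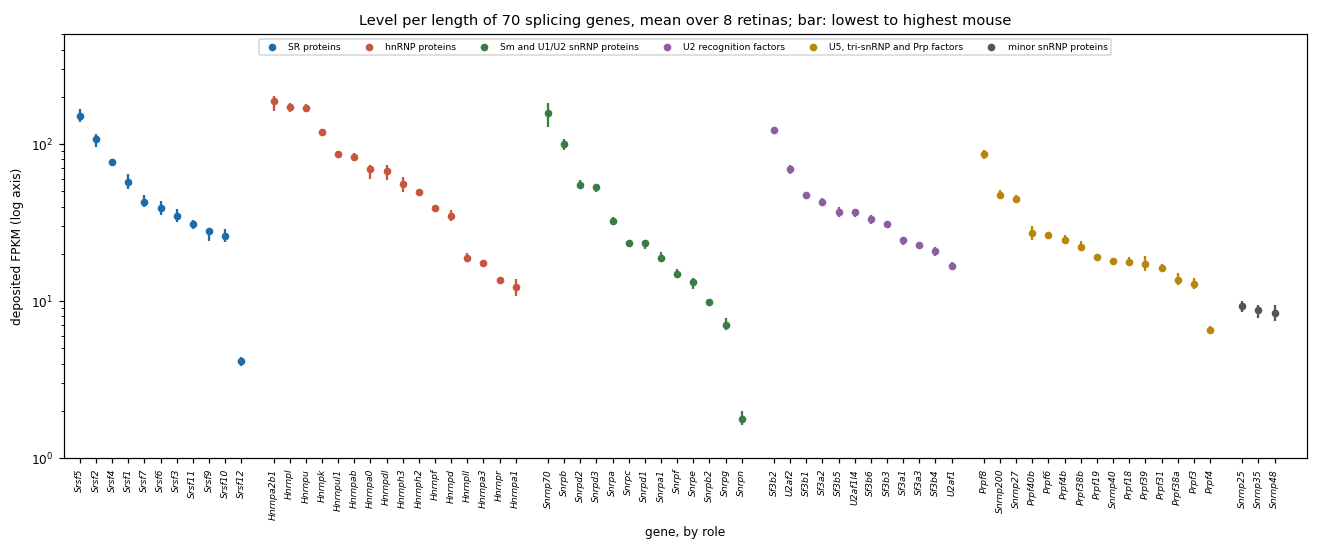
Deposited FPKM (log axis) of 70 of the 71 genes, grouped by role and sorted within each role; points are means over the 8 retinas and bars run from the lowest to the highest mouse. Levels span from 1.78 FPKM for Snrpn to 188 FPKM for Hnrnpa2b1, and each bar is short beside this whole range.

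The comparison of Rbfox2 KD with control retinas asked whether loss of 1 splicing regulator was accompanied by changed amounts of the RNAs for the machinery it works with. None of the 71 genes passed an adjusted p of 0.05 by edgeR's quasi-likelihood test (lowest adjusted p = 0.243), where 0.0655% of all genes tested did. The count was also 0 by DESeq2 (lowest adjusted p = 0.0504, Hnrnpa2b1), which called 460 of all genes tested, by edgeR's likelihood ratio test (0.209), which called 164, and by limma-voom (0.239), which called 11. It stayed at 0 with each mouse left out in turn (lowest adjusted p = 0.0675 without control M833, edgeR quasi-likelihood test), where 5 to 35 of all genes were called. With p under 0.05 before adjustment, 8 splicing genes stood out, 6 of them higher and 2 lower in Rbfox2 KD, which is 11.3% of the 71 against 13.3% of all genes (6.42% higher and 6.87% lower). With p under 0.01 there were 1 higher and 1 lower, 2.82% of the 71 against 3.88% of all genes (1.94% higher and 1.93% lower). Groups did not overlap for 3 genes, 2 above and 1 below, 4.23% against 7.03% of all genes (3.64% above and 3.39% below). With both directions together, each of these shares among the splicing genes was below the background, and it was above it for the 6 genes that were higher with p under 0.05.

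The differences were small as well as not called. The log2 fold changes of the 71 genes ran from -0.14 to 0.22, and 1 of them (Snrpg) exceeded 0.2 in size. The 95% interval of the fold change lay within 1.2-fold in either direction for 63 of 71 genes (88.7%), against 55.1% of all genes tested and 73.9% of those at least as abundant as the lowest member. Mice of 1 group differed little, with a median coefficient of variation of 3.97% in control and 4.16% in Rbfox2 KD retinas, against 6.51% and 6.65% over all genes and 5.08% and 5.27% over those at least as abundant as the lowest member. Together the 71 genes took 0.837% to 0.880% of all counts in control and 0.843% to 0.879% in Rbfox2 KD retinas, ranges that nearly coincide.

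A slight shift of sign was present, with 52 of the 71 log2 fold changes positive (73.2%, against 50.7% of all genes). The median was 0.028, against 0.0016 over all genes and 0.0058 over genes at least as abundant as the lowest member. Those genes are not matched in level, with a median of 11.5 FPKM against 31.0 FPKM for the 71. Without M901 and M902 together 38 were positive and the median was 0.00086. Leaving out M901 alone left 49 positive with a median of 0.025, leaving out M902 alone left 39 with a median of 0.0096, and leaving out M909 gave 53 with a median of 0.047.

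The counts at an unadjusted p under 0.05 moved with single mice, and those over all genes moved with them. Without M901 and M902 no member was higher and 1 was lower, 1.41% of the 71 against 6.01% of all genes. Without control M833 11 were higher, and members with such a p in either direction were 16.9% against 17.6% of all genes. Without M909 10 were higher (18.3% in either direction against 17.8%), and without control M896 2 were higher (4.23% against 8.84%). The number higher was 3 without any 1 of control M898, M893, M901 and M902, with 8.83% to 12.5% of all genes in either direction. For genes lower it was 1 without any 1 of control M833, control M896, M893, M901 and M902. With p under 0.01 there were 4 genes higher without control M833, 1 without M909 and 0 without any other mouse, and 1 lower without M902 or M909 and 0 otherwise. The share of all genes at p under 0.01 is not given for these fits. At p under 0.05 that share was highest without M909 and without control M833 (17.8% and 17.6%).

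**Figure D2:**
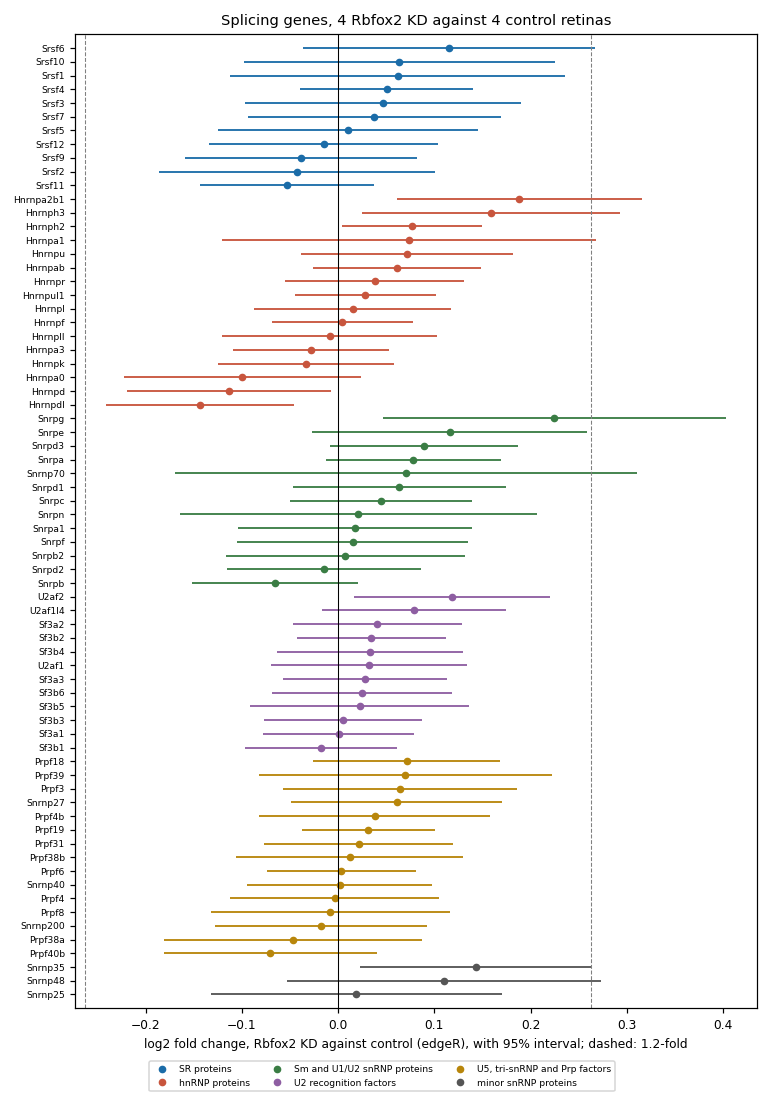
Log2 fold change of Rbfox2 KD against control retinas for 70 of the 71 genes, with 95% intervals from edgeR, coloured by role; the solid line marks no difference and the dashed lines 1.2-fold. All points lie between -0.14 and 0.22, and 62 of the 70 intervals stay within the dashed lines.

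The 16 hnRNP genes held 5 of the 8 genes with an unadjusted p under 0.05, 3 higher and 2 lower (31.25% of the class, against 13.3% of all genes, a difference that was not tested). Of the 16, 10 had a positive log2 fold change. The median was 0.021, it was 0.0041 without M901 and M902, and with 1 mouse left out it ran from 0.011 (without M902) to 0.040 (without M909). For Hnrnpa2b1, the lowest p of the whole group, the control values were 421, 379, 348 and 360.0 CPM (M833, M894, M896 and M898), and the Rbfox2 KD values were 427, 431, 443 and 417 CPM (M893, M901, M902 and M909). The Rbfox2 KD mice were alike and high, but the control M833 lay among them, so the groups overlapped. The log2 fold change was 0.19 (SE 0.057, 95% interval 0.061 to 0.32), a difference of 13.9% (95% interval 4.32% to 24.4%), and did not pass adjustment (edgeR quasi-likelihood test, adjusted p = 0.243). Without M901 and M902 it was 0.16, and without control M833 0.24.

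Hnrnpdl, a relative of Hnrnpd, was lower in all 4 Rbfox2 KD retinas. It had 192, 196, 200.3 and 194 CPM in the control retinas and 176, 164, 189 and 179 CPM in the Rbfox2 KD retinas. All Rbfox2 KD values lay below all control values, with M901 the lowest and M902 the nearest to the controls. The log2 fold change was -0.14 (SE 0.044, 95% interval -0.24 to -0.046) and did not pass adjustment (adjusted p = 0.243, edgeR quasi-likelihood test), and it was -0.14 without M901 and M902. Hnrnpd, also known as AUF1, a protein that binds AU-rich elements and speeds the decay of the messenger RNAs holding them, had 255, 230.1, 242 and 236 CPM in the control retinas and 212, 217, 223 and 239 CPM in the Rbfox2 KD retinas. Here M909 lay among the controls and the other 3 Rbfox2 KD mice below them (log2 fold change -0.11, SE 0.047, 95% interval -0.22 to -0.0077; edgeR quasi-likelihood test, adjusted p = 0.353), and without M901 and M902 the value was -0.10.

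Hnrnph3 and Hnrnph2 belong to the hnRNP F/H proteins, which bind runs of G. Hnrnph3 had 128, 115, 107 and 108 CPM in the control retinas and 123, 135, 133 and 121 CPM in the Rbfox2 KD retinas, with control M833 inside the Rbfox2 KD range (log2 fold change 0.16, SE 0.060, 95% interval 0.025 to 0.29; edgeR quasi-likelihood test, adjusted p = 0.316). It was highest in M901 and M902, and without these 2 the log2 fold change was 0.089. Its exons overlap Rufy2 on the other strand. Hnrnph2, the only one of the 71 genes on the X chromosome, had 119.8, 109.6, 114 and 113 CPM in the control retinas and 119, 120.2, 120.2 and 121 CPM in the Rbfox2 KD retinas. The Rbfox2 KD values were tightly grouped, M901 and M902 with their high Xist were level with M893 and M909, and control M833 lay among them (log2 fold change 0.077, SE 0.033, 95% interval 0.0038 to 0.15; edgeR quasi-likelihood test, adjusted p = 0.36). Without these 2 the log2 fold change was 0.075. Hnrnpf, of the same subfamily, had 88.4 ± 2.84 CPM in control and 88.7 ± 1.49 CPM in Rbfox2 KD retinas (SD, n = 4 each), a log2 fold change of 0.0043 (SE 0.033, 95% interval -0.069 to 0.078), but has 6 pseudogene copies.

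The other hnRNP genes had log2 fold changes from -0.10 (Hnrnpa0) to 0.074 (Hnrnpa1). Hnrnpl had 369 ± 11.6 CPM in control and 373 ± 20.4 CPM in Rbfox2 KD retinas (SD, n = 4 each), a difference of 1.05% (95% interval -5.86% to 8.46%). Hnrnpu had 609.9 ± 40.6 CPM in control and 641 ± 14.9 CPM in Rbfox2 KD retinas (SD, n = 4 each), and Hnrnpul1, its relative, had 248 ± 5.05 CPM in control and 252 ± 6.19 CPM in Rbfox2 KD retinas (SD, n = 4 each). Hnrnpa1, a classic antagonist of SR proteins, varied more between mice, with 25.2, 22.5, 19.8 and 19.0 CPM in the control retinas and 21.9, 21.6, 24.6 and 22.9 CPM in the Rbfox2 KD retinas, and its interval reached from -0.12 to 0.27.

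**Figure D3:**
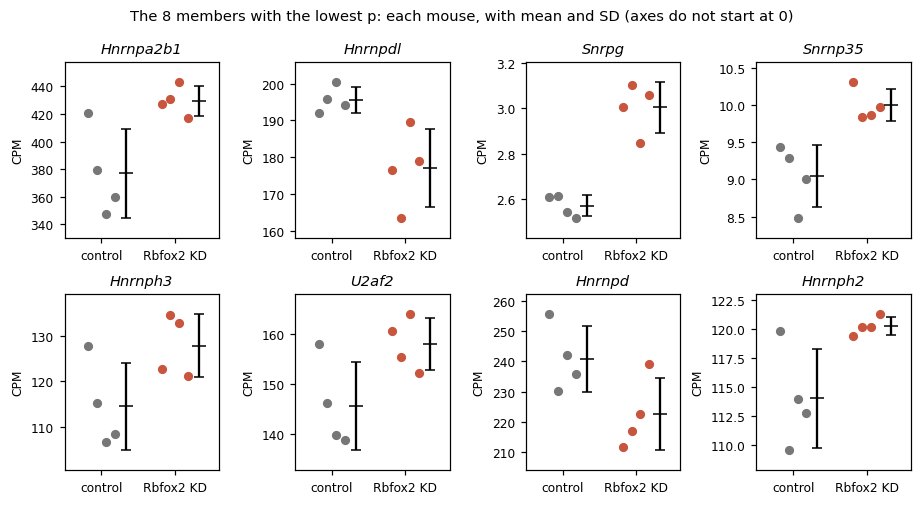
CPM in each of the 4 control (grey) and 4 Rbfox2 KD (red) retinas for the 8 genes with the lowest p, with the mean and SD of each group in black; the vertical axes do not start at 0. Hnrnpdl, Snrpg and Snrnp35 are the 3 genes whose groups do not overlap, and in Hnrnpa2b1, Hnrnph3 and Hnrnph2 the control M833 lies within the Rbfox2 KD range, as it does in U2af2.

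None of the 11 SR protein genes had an unadjusted p under 0.05, against 13.3% of all genes tested. They had 7 positive log2 fold changes and a median of 0.038. That median rested on single mice, being 0.00032 without M902, 0.013 without control M898, 0.015 without control M894, 0.069 without control M833, 0.074 without M909 and -0.0024 without M901 and M902. Srsf6 had the highest, 0.12 (SE 0.068, 95% interval -0.036 to 0.27), with 147, 141, 125 and 125 CPM in the control retinas and 154, 137, 157 and 134 CPM in the Rbfox2 KD retinas. The Rbfox2 KD mice M893 and M902 were above all controls, and M901 and M909 were among them (edgeR quasi-likelihood test, adjusted p = 0.493), and without M901 and M902 the value was 0.10. Srsf4, a relative of Srsf6, had a log2 fold change of 0.051, and of -0.0024 without these 2. Srsf11 had the lowest, -0.053 (SE 0.041, 95% interval -0.14 to 0.037), with 97.1 ± 3.67 CPM in control and 93.6 ± 3.99 CPM in Rbfox2 KD retinas (SD, n = 4 each). Srsf5, the most abundant of the family per length, had 247 ± 19.9 CPM in control and 249 ± 13.6 CPM in Rbfox2 KD retinas (SD, n = 4 each), a difference of 0.686% (95% interval -8.32% to 10.6%).

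Srsf2, which binds exonic enhancers and is the next most abundant SR gene per length, had 215, 213, 204 and 206 CPM in the control retinas and 221, 185, 221 and 186 CPM in the Rbfox2 KD retinas. The Rbfox2 KD mice fell into a high pair (M893 and M902) and a low pair (M901 and M909), and the log2 fold change was -0.043 (SE 0.064, 95% interval -0.19 to 0.10). Srsf1, the founding member of the family, had 350.5, 324, 301 and 281 CPM in the control retinas and 341, 307, 363 and 301 CPM in the Rbfox2 KD retinas, again with M893 and M902 above M901 and M909. Srsf10 showed the largest spread of the family among control mice, a coefficient of variation of 10.4%, with M833 at 80.0 CPM against 64.7 to 67.4 CPM in the other 3. M902 was the highest of the 8 libraries for 6 of the 11 SR genes.

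Among 13 genes of the Sm ring and of the U1 and U2 particles, 11 had a positive log2 fold change (median 0.044). An unadjusted p under 0.05 was found for 1 of them (7.69%, against 13.3% of all genes). The median was 0.024 without M901 and M902, and 0.024 (without M902) to 0.054 (without M893) with 1 mouse left out. The gene with that p was Snrpg, which encodes a ring protein shared by the U1, U2, U4 and U5 particles, and the control values were 2.61, 2.61, 2.54 and 2.52 CPM (M833, M894, M896 and M898), and the Rbfox2 KD values were 3.01, 3.1, 2.85 and 3.06 CPM (M893, M901, M902 and M909). All 4 Rbfox2 KD values lay above all 4 control values. The log2 fold change of 0.22 (SE 0.080, 95% interval 0.046 to 0.40) was the largest of the 71, and did not pass adjustment (edgeR quasi-likelihood test, adjusted p = 0.289). It was 0.24 without M901 and M902. Snrpg was among the least abundant, with 446 to 598 counts per mouse, and 1 pseudogene copy matches it.

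The ring partners of Snrpg had smaller log2 fold changes, and none had an unadjusted p under 0.05, against 13.3% of all genes. Snrpe had 5.98, 5.88, 6.43 and 6.58 CPM in the control retinas and 6.73, 6.96, 6.76 and 6.5 CPM in the Rbfox2 KD retinas (log2 fold change 0.12, SE 0.064, 95% interval -0.027 to 0.26). Snrpd3 had 31.6, 29.4, 32.0 and 31.5 CPM in the control retinas and 33.3, 33.9, 33.9 and 31.3 CPM in the Rbfox2 KD retinas (log2 fold change 0.089, SE 0.044, 95% interval -0.0088 to 0.19). Their lowest Rbfox2 KD values, both in M909, lay within the control range. Snrpf (0.015), Snrpd1 (0.064), Snrpd2 (-0.015) and Snrpb (-0.066) had smaller or negative log2 fold changes. Snrpb, the core ring gene with the highest level per length, had 114 ± 3.68 CPM in control and 109 ± 4.62 CPM in Rbfox2 KD retinas (SD, n = 4 each), the lowest log2 fold change of the class.

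Of the proteins specific to U1, Snrpa, which binds a stem-loop of U1 RNA, had 43.1 ± 1.34 CPM in control and 45.5 ± 1.57 CPM in Rbfox2 KD retinas (SD, n = 4 each) (log2 fold change 0.078, SE 0.041, 95% interval -0.013 to 0.17, and 0.039 without M901 and M902), and Snrpc had 17.6 ± 0.525 CPM in control and 18.2 ± 0.331 CPM in Rbfox2 KD retinas (SD, n = 4 each). Snrnp70 was the most variable of all 71 genes among control mice, with 275, 293, 234 and 208 CPM in the control retinas and 263, 237, 304 and 257 CPM in the Rbfox2 KD retinas. The coefficient of variation was 15.3% in control and 10.5% in Rbfox2 KD retinas, both groups held high and low mice, and the interval of its log2 fold change ran from -0.17 to 0.31. The U2-specific genes Snrpa1 and Snrpb2 had log2 fold changes of 0.018 and 0.0076.

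The 12 genes that recognise the end of the intron and the branch point (U2AF, SF3a and SF3b) gave small differences throughout. The log2 fold change was positive in 11 (median 0.030), and all 12 intervals lay within 1.2-fold. The median was 0.0079 without M901 and M902, and 0.021 (without control M894) to 0.045 (without M909) with 1 mouse left out. U2af2, the large U2AF subunit that binds the polypyrimidine tract, was the 1 gene with an unadjusted p under 0.05 (8.33% of the 12, against 13.3% of all genes). It had 158, 146, 139.8 and 139 CPM in the control retinas and 161, 155, 164 and 152 CPM in the Rbfox2 KD retinas. Control M833 lay among the Rbfox2 KD mice (log2 fold change 0.12, SE 0.046, 95% interval 0.016 to 0.22; edgeR quasi-likelihood test, adjusted p = 0.322), and without M901 and M902 the value was 0.10. U2af1, which reads the AG at the intron's end, had 15.0 ± 0.319 CPM in control and 15.3 ± 0.543 CPM in Rbfox2 KD retinas (SD, n = 4 each), and U2af1l4, a relative of it, had 31.0 ± 1.36 CPM in control and 32.7 ± 0.815 CPM in Rbfox2 KD retinas (SD, n = 4 each). Exons of U2af1l4 overlap Gm49396 on the same strand and Psenen on the other.

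Sf3b1, the SF3b scaffold that holds the branch point, had 294 ± 5.54 CPM in control and 290.2 ± 9.53 CPM in Rbfox2 KD retinas (SD, n = 4 each), a difference of -1.23% (95% interval -6.47% to 4.31%). Sf3b2 had 396 ± 3.76 CPM in control and 405 ± 12.9 CPM in Rbfox2 KD retinas (SD, n = 4 each), a difference of 2.4% (95% interval -2.94% to 8.05%). The SF3a genes Sf3a1, Sf3a2 and Sf3a3 had log2 fold changes of 0.00061, 0.041 and 0.028, and the values of their groups overlapped.

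All 3 minor snRNP genes matched by the name rule had positive log2 fold changes. The median was 0.11, it was 0.063 without M901 and M902, and with 1 mouse left out it ran from 0.061 (without M902) and 0.070 (without control M896) to 0.16 (without control M833). Snrnp35, the counterpart of Snrnp70 on the U11 particle, had 9.43, 9.29, 8.48 and 9.0 CPM in the control retinas and 10.3, 9.84, 9.87 and 9.98 CPM in the Rbfox2 KD retinas. Every Rbfox2 KD value lay above every control value (log2 fold change 0.14, SE 0.054, 95% interval 0.023 to 0.26; edgeR quasi-likelihood test, adjusted p = 0.316), and without M901 and M902 the log2 fold change was 0.16. Snrnp48 (0.11, SE 0.073, 95% interval -0.054 to 0.27) and Snrnp25 (0.019, SE 0.068, 95% interval -0.13 to 0.17) had overlapping groups. Both also encode proteins of the U11/U12 particle. Minor spliceosome genes outside the name rule are given beside these 3, and the difference between the sets was not tested. Of 6 such genes, 4 had positive and 2 negative log2 fold changes, with a median of 0.011. They ran from -0.063 (Rnpc3) to 0.060 (Zcrb1), and none had an unadjusted p under 0.05 (edgeR quasi-likelihood test), against 13.3% of all genes.

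The 16 genes of the U5 particle, the tri-snRNP and the Prp factors had 10 positive log2 fold changes with a median of 0.0075. None had an unadjusted p under 0.05, against 13.3% of all genes, and all 16 intervals lay within 1.2-fold. The sign of the median was not fixed, being -0.017 without M901 and M902, -0.0099 without M902, -0.0057 without control M894 and up to 0.032 without control M833. The class holds the 6 genes known for retinitis pigmentosa, of which 3 were positive and 3 negative. Those signs were not stable either, since with 1 mouse left out Prpf31, Prpf4, Prpf6, Prpf8 and Snrnp200 each had values on both sides of 0, and Prpf3 ran from 0.028 to 0.11 and was -0.018 without M901 and M902. Prpf8, the scaffold around the catalytic site, had 697, 647, 633 and 608 CPM in the control retinas and 616, 653, 609 and 693 CPM in the Rbfox2 KD retinas, a difference of -0.579% (95% interval -8.79% to 8.37%). Snrnp200, the helicase that unwinds U4 from U6, had 347, 316, 313 and 304 CPM in the control retinas and 301, 316, 315 and 334 CPM in the Rbfox2 KD retinas, a difference of -1.23% (95% interval -8.5% to 6.63%). The control M833 was the highest library for both, and the groups overlapped throughout.

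Prpf31, which joins the U4/U6 and U5 particles, had 50.4 ± 1.44 CPM in control and 51.2 ± 2.58 CPM in Rbfox2 KD retinas (SD, n = 4 each), a difference of 1.48% (95% interval -5.2% to 8.63%). Prpf6, a bridge within the tri-snRNP, had 80.0 ± 1.8 CPM in control and 80.1 ± 2.67 CPM in Rbfox2 KD retinas (SD, n = 4 each), a difference of 0.22% (95% interval -5.03% to 5.76%). Of the U4/U6 proteins, Prpf4 had 34.6 ± 1.27 CPM in control and 34.5 ± 1.88 CPM in Rbfox2 KD retinas (SD, n = 4 each) and Prpf3 had 34.6 ± 1.04 CPM in control and 36.2 ± 2.62 CPM in Rbfox2 KD retinas (SD, n = 4 each), differences of -0.243% (95% interval -7.47% to 7.55%) and 4.55% (95% interval -3.93% to 13.8%). All 6 intervals stayed within 1.2-fold. Outside these 6, Prpf18, a factor of the second catalytic step, had the highest log2 fold change of the class (0.071, SE 0.044, 95% interval -0.026 to 0.17, and 0.022 without M901 and M902) and Prpf40b, a relative of a yeast U1 protein, the lowest (-0.070, SE 0.050, 95% interval -0.18 to 0.041).

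Some mice were high or low for many of the 71 genes at once. The median over the 71 genes of the log2 ratio to the control mean was 0.043 in M833, -0.025 in M894, -0.013 in M896 and -0.019 in M898 among controls, while among Rbfox2 KD mice it was 0.074 in M902, 0.022 in M893, 0.017 in M901 and 0.0025 in M909. The control M833 was thus higher than 3 of the 4 Rbfox2 KD mice. M902 was the highest of the 8 libraries for 25 of the 71 genes, and for 15.5% of all genes tested. M833 was the highest for 13, and for 11.5% of all genes. M909 was the lowest for 17 and M894 for 16 (14.2% and 13.7% of all genes). M902 had the smallest library and M833 the largest. The summed level of 4 nuclear-retained RNAs was 1163 to 2082 CPM in control and 1304 to 2104 CPM in Rbfox2 KD retinas, with M833 highest among controls and M909 among Rbfox2 KD mice, and its part in these shifts was not tested.

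**Figure D4:**
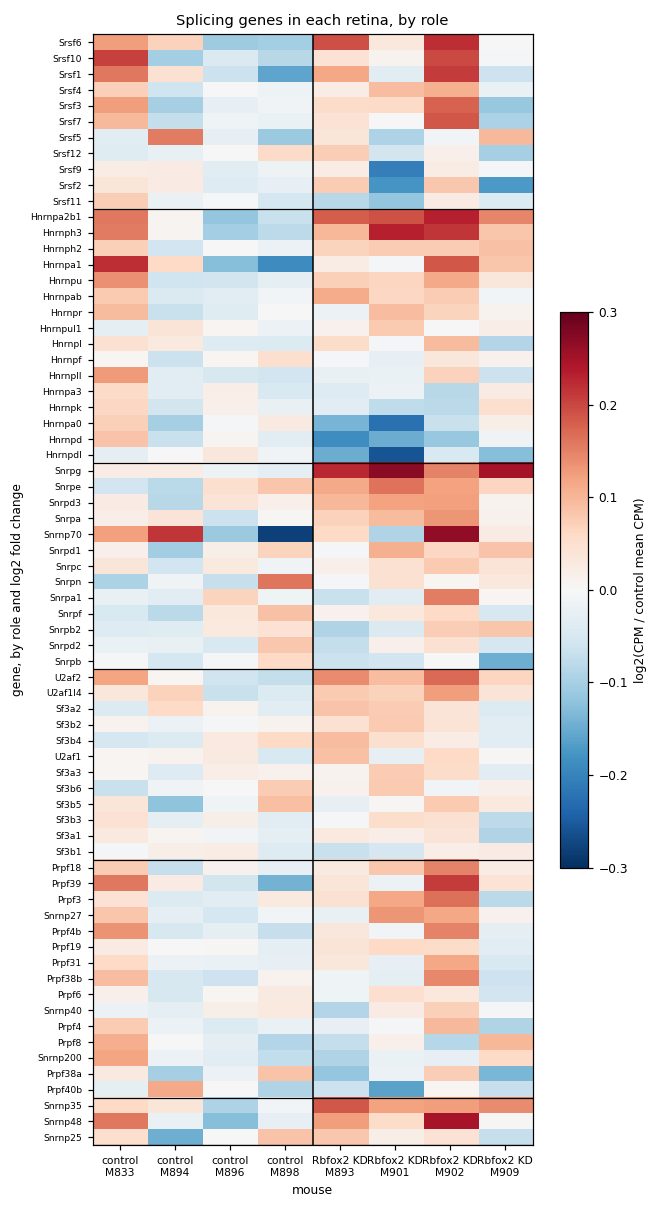
Log2 ratio of CPM in each mouse to the control mean for 70 of the 71 genes (one line each, grouped by role and sorted by log2 fold change); red is higher and blue lower. The columns of control M833 and of M902 are mostly red, where the medians over all 71 were 0.043 and 0.074, and those of M894, M896 and M898 are mostly pale or blue, at -0.025, -0.013 and -0.019.

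Relatives that do similar work can shift against each other while their sum holds, so the log2 ratio of counts was compared within 7 pairs of paralogs fixed for this purpose, with a two-sided exact permutation test over the 70 groupings of the 8 mice (smallest possible p = 0.0286) and Benjamini-Hochberg adjustment over the 7. With this smallest p, 1 pair alone could not have passed the adjustment, so that no call at 0.05 was to be had from a single pair, and none was made. The lowest p was that of Hnrnpa1/Hnrnpa2b1, whose log2 ratio was -4.13 ± 0.084 in control and -4.24 ± 0.073 in Rbfox2 KD retinas (SD, n = 4 each), a difference of -0.11 (exact p = 0.114, adjusted p = 0.60). Because of the pseudogene copies of Hnrnpa1, the level of this ratio is uncertain. Snrpn/Snrpb had -5.00 ± 0.089 in control and -4.91 ± 0.073 in Rbfox2 KD retinas (SD, n = 4 each), a difference of 0.090 (exact p = 0.171, adjusted p = 0.60). Per length, Snrpn was at 0.018 of the level of Snrpb over all mice, a value that is uncertain because its exons overlap those of Snurf.

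The other 5 pairs had exact p-values from 0.40 to 0.83. The ratio of Srsf3 to Srsf7 was the steadiest, with -0.12 ± 0.024 in control and -0.11 ± 0.033 in Rbfox2 KD retinas (SD, n = 4 each), a difference of 0.010. Hnrnpl stood at 9.26 times the level of Hnrnpll per length, Hnrnpu at 1.96 times that of Hnrnpul1 and Srsf4 at 1.95 times that of Srsf6, and Hnrnpd at 0.519 of Hnrnpdl. Hnrnpd and Hnrnpdl were both lower in the Rbfox2 KD retinas, and their ratio differed by 0.031 (exact p = 0.83).

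**Figure D5:**
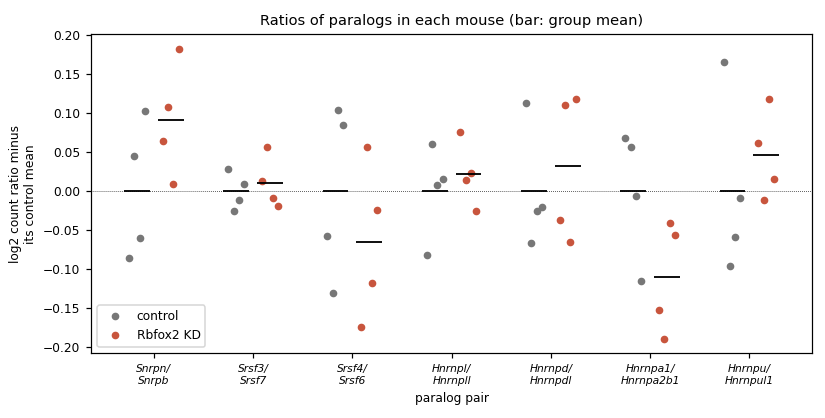
Log2 ratio of counts within 7 pairs of paralogs in each control (grey) and Rbfox2 KD (red) mouse, set relative to the control mean of that pair; bars are group means. The groups overlap in all 7 pairs, and the means of Hnrnpa1/Hnrnpa2b1 differ by -0.11 (Rbfox2 KD minus control).

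Further genes of the pathway outside the 71 gave similar counts. Of 92 genes for the LSm and SMN proteins, the Prp19 complex and catalytic core, the exon junction complex, SR kinases and SR-related proteins, the minor spliceosome and nonsense-mediated decay, 61 had a positive log2 fold change (median 0.024), 7 were higher and 1 lower at an unadjusted p under 0.05 (8.70%, against 13.3% of all genes), and none passed an adjusted p of 0.05 (lowest 0.273, edgeR quasi-likelihood test). The higher ones were Clk3, a kinase of SR proteins, at a log2 fold change of 0.18, Upf2, of nonsense-mediated decay, at 0.16, Gemin8, of the SMN complex, at 0.21, Ppil1, Ctnnbl1 and Aqr, of the Prp19 class, at 0.15, 0.14 and 0.13, and Tnpo3, which imports SR proteins into the nucleus, at 0.084. Rsrp1 was the lower one, at -0.16. The count of the 92 with such a p moved in the same direction as the share of all genes when mice were left out. It was 21 without M909 (17.8% of all genes), 13 without control M833 (17.6%), 4 without control M896 (8.84%), 3 without M901 (9.25%) and 0 without M901 and M902 (6.01%). Without control M894, control M898 or M893 it was 5, with 11.8%, 8.83% and 12.5% of all genes.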

How the data were processed

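Whole-retina RNA of 8 mice was sequenced. According to the methods and labels, the authors aligned reads to mm10 with STAR, kept uniquely mapped reads and deposited fragment counts per gene from HTSeq. They also deposited FPKM, in which each count is divided by gene length and by the total of the column. The processing notes name CASAVA 1.8.2 and edgeR. The file also holds the authors' fold changes, p-values, false discovery rates and an adjusted signal, which were not used. Depth was 160630226 to 211283591 counts per mouse.

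Counts were tested with edgeR 4.0.16 (R 4.3.3; filterByExpr, TMM, quasi-likelihood, 16797 of 17500 genes kept) as 4 Rbfox2 KD against 4 control mice, with Benjamini-Hochberg adjustment over all genes tested. CPM uses TMM-scaled library sizes. The labels name separate mice. The members and gene lists were chosen with earlier results of these data known. Named were the 12 members with the lowest p, members whose groups do not overlap, in each role the 2 highest in FPKM and those with the largest and smallest log2 fold change, the paralog pairs (0.5 counts added) and retinitis pigmentosa genes; others named were chosen after their values were seen. Alternatives used DESeq2 1.42.0, limma 3.58.1, sva 3.50.0, other scalings, filters and mice left out. The code was tested on simulated data. No 2 libraries agreed within sampling noise (chi-square per degree of freedom at least 30.6). Of the members, 1 is counted but not named or drawn, and the pair that holds it is not reported here. Pseudogene copies were found with minimap2 2.31.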

Additional observations from a re-analysis of the deposited data

Results flagged for a closer look

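In 3 of the 90 groups of 4 mice examined (each group of the 38 named genes and 7 ratios), 1 mouse lay far from the other 3 by Dixon's criterion, where chance alone gives about 1 in 20, or 4.5 groups. All 3 were the control M833. It had 62.7 CPM of Hnrnpll, a relative of Hnrnpl, against 55.1 to 56.1 CPM in the other controls. It had 670.2 CPM of Hnrnpu, against 584.9 to 597.5 CPM. It had 52.6 CPM of Prpf31, against 49.6 to 49.8 CPM. M833 was also the largest library and had the highest summed level of nuclear-retained RNAs among controls, whose part was not tested.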

How the results depend on the processing

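No member passed an adjusted p of 0.05 under any of the 17 alternatives run. With other scalings, other filters, limma-voom or DESeq2, the counts of genes at an unadjusted p under 0.05 or 0.01, the number positive and the median stayed within 1.5 times or the spread between mice. With edgeR's likelihood ratio test 3 members were higher and 1 lower at p under 0.05 (10.03% of all genes), and 0 lower at p under 0.01. Without M901 and M902 these were 0 and 1 at p under 0.05 and 0 and 0 at p under 0.01 (6.01% of all genes at p under 0.05), 0 of the 92 other splicing genes passed p under 0.05, and the Srsf3/Srsf7 difference was -0.0032. With 1 surrogate variable they were 1 and 1, and 0 and 0, with 0 of the 92, 34 members positive, a median of -0.0049 and 6.45% of all genes at p under 0.05. Leaving out 1 mouse at a time gave 2 (without control M896) to 11 (without control M833) members higher and 1 to 3 lower at p under 0.05, 0 to 4 higher and 0 to 1 lower at p under 0.01, 39 to 54 positive, a median of 0.0096 to 0.047, and 3 to 21 of the 92 genes, where 8.83% to 17.8% of all genes had p under 0.05. The paralog differences then ran from -0.0053 to 0.020 for Srsf3/Srsf7 and from -0.0059 to 0.042 for Hnrnpl/Hnrnpll, both with exact p above 0.05. The cause of these moves was not tested. The counts at p under 0.01 under the alternatives have no share of all genes beside them and are not read as a result about the members. No paired analysis was possible because the labels number mice and give no replicate numbers shared between the groups. The least counted member, Snrpg, had 446 to 598 counts per mouse, so that counting error adds to its spread, and intervals cover the spread between these mice only.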
